A study of Macaca mulatta with 24 samples.

Results

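Transcription of a nuclear gene needs an RNA polymerase, the factors that place it at a promoter and, for messenger RNA genes, the coactivator that links it to regulatory proteins. The genes described here encode these parts. They were chosen by symbol, namely the subunits of RNA polymerases I, II and III (POLR1, POLR2 and POLR3 followed by a letter from A to L), the TATA-binding protein associated factors (TAF), the general transcription factors of the GTF2 and GTF3 series, the Mediator subunits (MED) and UBTF. Of 17208 gene symbols measured in the nucleus accumbens core, 103 were members, and 102 of these had a mean over the 24 animals of at least 1 TPM, a unit that gives each gene its share of all transcripts, corrected for length. The member under that threshold was GTF2IRD2B, with a mean of 0.0062 TPM, and it was left out of the tests described below. A level of at least 10 TPM was reached by 88 members.

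RNA polymerase I makes the precursor of the large ribosomal RNAs, RNA polymerase II makes messenger RNAs and many small nuclear RNAs, and RNA polymerase III makes transfer RNAs and the smallest ribosomal RNA. Some small subunits are built into all of these enzymes, others into polymerases I and III alone, and the large catalytic subunits are particular to each enzyme. At polymerase II promoters TFIID, made of the TATA-binding protein and its TAFs, is joined by TFIIA, TFIIB, TFIIE, TFIIF and TFIIH, while Mediator, with its head, middle, tail and kinase modules, passes signals from activators to the enzyme. In neurons this machinery serves the activity-dependent transcription that follows synaptic input.

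The tissue came from adult male, unrelated rhesus macaques of 4 cohorts, and each animal was measured once by RNA-Seq of polyA-selected RNA. Drinking animals were brought to self-administer ethanol by schedule-induced polydipsia, in which timed food pellets induce drinking, and then had daily open access to ethanol and water for about a year until necropsy. The 8 LD* animals, a pair of them older than the rest, carried the label for low drinkers, which here also takes in binge drinkers, and took between 0.47 and 2.07 g/kg of ethanol a day (median 1.82). The 8 HD* animals joined 4 heavy drinkers (HD) and 4 very heavy drinkers (VHD) and took between 2.74 and 3.78 g/kg (median 3.09). The 8 controls lived in the same rooms and went through the same schedule with water at both spouts, and received a maltose dextrin solution to match calories. Cohort was uneven over the groups. The controls were split 3, 2 and 3 over cohorts 5, 7a and 7b, the LD* animals 2, 3 and 3 over cohorts 4, 7a and 7b, and the HD* animals 4 and 4 over cohorts 5 and 7a. HD* animals and controls thus met only in cohorts 5 and 7a.

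Markers of striatal projection neurons were checked first. All 9 of them, PENK the most abundant with a mean of 2638 TPM, exceeded 1 TPM on average, and their sum lay between 2698 and 11852 TPM in 23 animals. Control 6, of cohort 7b, stood apart with a sum of 765 TPM. It held 304 TPM of PPP1R1B, against at least 1051 TPM in every other animal, and the highest sum of the 8 oligodendrocyte markers (9719 TPM, followed by 6459 TPM in LD* 5). A further 4 animals stood apart by their ribosomal protein messages. A ribosomal protein score, the mean over 76 such genes of log2(TPM + 1) centred on each gene's mean over the 24 animals, was 0.80 in HD* 8, 0.70 in HD* 6, 0.67 in LD* 5 and 0.57 in Control 8, and no more than 0.32 in the other 20 animals. These genes held between 7.57% and 18.1% of all TPM, so the part of the TPM left for all other genes differed between animals. Values without the 4 animals are given beside several of the comparisons below. The tissue was bulk tissue, in which fewer cells of a type and less RNA per cell cannot be told apart.

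The members were more abundant than genes at large. The median of their mean levels was 30.4 TPM, against 20.1 TPM over all 13637 genes past the same threshold, and 13.7% of the members lay under 10 TPM against 32.6% of all genes. The share above 100 TPM was closer, with 15.7% of members and 14.1% of all genes. Between animals the members also varied less than most genes, with a median SD of log2(TPM + 1) of 0.26 against 0.32.

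Subunit messages of RNA polymerase II were the most abundant of the 3 enzymes, with a median of 107 TPM over the 7 subunits particular to it. POLR2I, a small subunit near the jaws of the enzyme, had the highest mean of all members (208 ± 36.8 TPM, SD, n = 24), and POLR2J, part of its core assembly, had 191 ± 15.0 TPM. The catalytic subunit POLR2A stood at 60.6 ± 15.7 TPM and the second-largest subunit, POLR2B, at 76.5 ± 16.9 TPM. Among the subunits particular to polymerase II the lowest was POLR2D, of the stalk, with 24.1 ± 2.96 TPM. The 5 subunits common to all enzymes ranged from POLR2F (68.0 ± 14.3 TPM) to POLR2L (187 ± 53.1 TPM), and the pair common to polymerases I and III were POLR1D (76.0 ± 8.79 TPM) and POLR1C (50.9 ± 6.70 TPM).

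The messages particular to polymerases I and III were lower. POLR1A, the largest subunit of polymerase I, and POLR1B, the second-largest, had 17.7 ± 4.06 and 16 ± 3.65 TPM, and only POLR1E, a further subunit of that enzyme, reached 86.6 ± 11.9 TPM. In polymerase III the catalytic subunit POLR3A had 20.6 ± 7.31 TPM, and the median of the 10 subunits was 20.5 TPM. The lowest of these was POLR3G (3.54 ± 1.09 TPM), whereas its paralog POLR3GL, which takes the same place in the enzyme of differentiated cells, had 40.4 ± 2.69 TPM. POLR3GL was also the steadiest member, with an SD of log2(TPM + 1) of 0.095, and its values between 35.0 TPM in Control 6 and 45.4 TPM in HD* 5 did not separate any group.

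**Figure D1:**
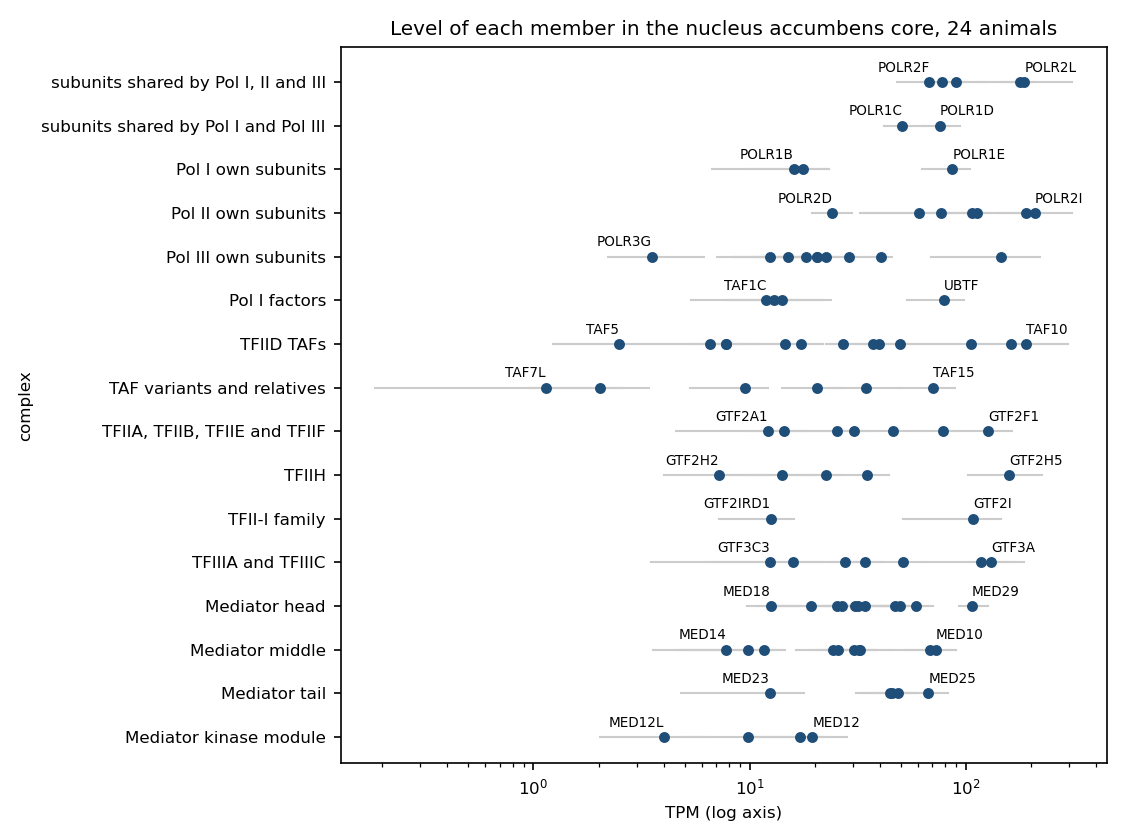
Mean level in TPM (log axis) of each of the members assigned to a complex and with a mean of at least 1 TPM, 1 point a gene, over 24 animals; grey lines run from the lowest to the highest animal. The highest and lowest genes of the complexes are named, with an exception, from POLR2I with 208 TPM to TAF7L with 1.14 TPM.

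Within the polymerase II promoter factors the spread of levels was wide. The TAFs of TFIID ran from TAF10 (191 ± 28.9 TPM) and TAF9 (161 ± 18.5 TPM), histone-fold proteins also used by the SAGA coactivator, to TAF5 (2.50 ± 0.54 TPM), a scaffold subunit. TAF1, the largest TAF, had 14.6 ± 2.15 TPM, and TAF7, which binds it, had 106 ± 16.6 TPM. The variants and relatives of TAFs ran from TAF7L, best known from germ cells, at 1.14 ± 0.66 TPM and TAF4B at 2.03 ± 0.68 TPM to the RNA-binding protein TAF15 at 70.3 ± 10.8 TPM, with a median of 15.0 TPM. A row named as a second copy of TAF13 (6.71 ± 1.94 TPM) was placed in no complex, and reads from near-identical copies make its value uncertain.

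GTF2F1, a subunit of TFIIF, was the most abundant of the subunits of TFIIA, TFIIB, TFIIE and TFIIF (127 ± 20.5 TPM), and GTF2A1 of TFIIA the least (12.2 ± 3.63 TPM). In TFIIH, which opens the promoter and also serves DNA repair, the small subunit GTF2H5 had 159 ± 31.9 TPM and GTF2H2 had 7.22 ± 1.94 TPM. GTF2I, a signal-responsive factor and a gene of the Williams syndrome region, had 108 ± 25 TPM.

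Among the polymerase III factors GTF3A, which binds the 5S ribosomal RNA gene, had 132 ± 18.6 TPM and GTF3C3, a subunit of TFIIIC, had 12.4 ± 3.38 TPM. UBTF, the factor that keeps ribosomal DNA open for polymerase I, had 79.0 ± 13.7 TPM. The TAFs of the polymerase I selectivity factor were lower, the lowest being TAF1C with 11.9 ± 2.01 TPM.

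Mediator subunits differed by module. The median of the subunit means was 45.4 TPM in the tail, 31.8 TPM in the head, 28.0 TPM in the middle and 13.5 TPM in the kinase module. MED29 (107 ± 9.43 TPM) led the head, MED10 (72.5 ± 8.01 TPM) the middle, MED25 (67.3 ± 10.1 TPM), a target of viral and cellular activators, the tail, and MED12 (19.5 ± 3.89 TPM) the kinase module. The lowest were MED18 (12.6 ± 1.56 TPM), MED14 (7.81 ± 1.68 TPM), the backbone that joins the modules, MED23 (12.4 ± 2.81 TPM) and MED12L (4.02 ± 0.97 TPM), in the same order of modules. MED29 and POLR2J were, after POLR3GL, the steadiest members, with SDs of 0.12 and 0.11, while POLR3A (0.56), GTF3C3 (0.46) and TAF7L (0.44) varied most.

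The first comparison asked whether the machinery differed between animals that drank heavily and controls. In the kinase module MED12 had 15.7, 20.5 and 28.2 TPM in the controls (lowest, median and highest of 8) and 10.7, 17.9 and 22.8 TPM in the HD* animals. The ranges of the groups overlapped over most of their length, and HD* 8 was the lowest animal. The difference on the log2(TPM + 1) scale was -0.30 (SE 0.14), with a limma unadjusted p of 0.0455 and an adjusted p of 0.71. MED13L, of the same module, differed by -0.27 (SE 0.13) and TAF8, which helps to assemble TFIID, by -0.27 (SE 0.14), both with an adjusted p of 0.71, and their ranges overlapped as well.

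None of the 102 members passed a limma adjusted p of 0.05 between HD* animals and controls, and none of all 13637 genes did (0.00%). The study, which tested counts with DESeq2, did report genes past an adjusted p of 0.05 in this contrast. It also reported a few between HD* and LD* animals. Its tests were not repeated here. At an unadjusted p under 0.05 the limma test took 1 member, MED12, and 775 genes (5.68%). The members lay lower in HD* animals in 80 cases and higher in 22, but once TPM were rescaled with TMM factors, which trim extreme log ratios between libraries, the split was 41 lower and 61 higher, so no direction could be given for the set. The same held for all genes, whose median difference was -0.12 as deposited and -0.0067 after TMM, beside -0.092 and 0.031 for the members. Without the 4 animals high in ribosomal protein messages the members' median was -0.029. Leaving out Control 6, or any other animal in turn, again gave 0 called members.

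Scores of the 16 complexes, each the mean over its genes of centred log2(TPM + 1), gave the same picture. The score of the kinase module was 0.12 ± 0.20 (SD, n = 8) for control animals, 0.0073 ± 0.21 for LD* and -0.12 ± 0.35 for HD* animals. The score of TFIID was 0.053 ± 0.084, 0.012 ± 0.082 and -0.065 ± 0.19 in the same order. The subunits common to all polymerases went the other way, with -0.045 ± 0.18, -0.026 ± 0.19 and 0.071 ± 0.24. All of these differences were smaller than the SD within the HD* animals, and the groups overlapped in every complex. Without HD* 8 the differences from controls went from -0.24 to -0.15 in the kinase module, from -0.12 to -0.065 in TFIID and from 0.12 to 0.071 in the common subunits. Within cohorts 5 and 7a the HD* animals differed from controls in the kinase module by -0.15 and -0.29 and in the common subunits by 0.12 and 0.11. Under TMM the difference of 10 of the 16 complexes changed from lower to higher in HD* animals, but that of the kinase module and of TFIID stayed negative.

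**Figure D2:**
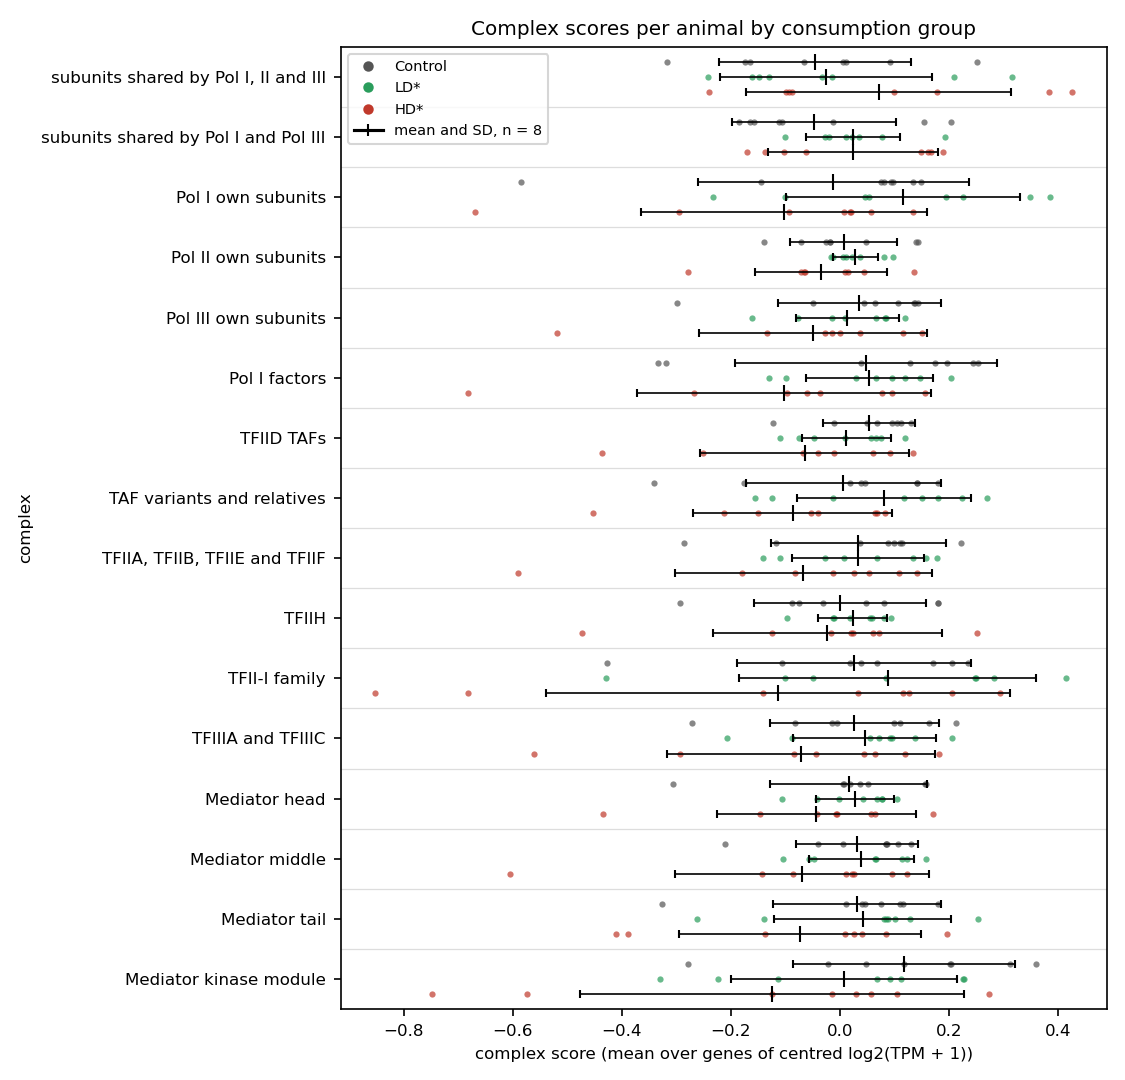
Score of each of the 16 complexes (mean over its genes of centred log2(TPM + 1)) in each of 24 animals, coloured by consumption group, with the mean and SD over 8 animals in black. The groups overlap in every complex, and HD* 8 is the lowest animal in 13 of them.

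LD* animals and controls were close. TAF7L, the member with the smallest p, had a lowest, median and highest value of 0.19, 0.74 and 2.55 TPM in the control group, of 0.64, 1.66 and 2.19 TPM among LD* and of 0.36, 0.69 and 1.65 TPM among HD* animals. The LD* median was above both others, yet all ranges overlapped, and how many reads lie behind values near 1 TPM is not known. The limma difference from controls was 0.40 (SE 0.20, adjusted p 1.00). POLR3K, a small subunit of polymerase III, differed by 0.15 (SE 0.097) and MED19, of the middle module, by 0.15 (SE 0.096). No member and none of all genes (0.00%) passed an adjusted p of 0.05, and at an unadjusted p under 0.05 limma took 0 members and 387 genes (2.84%). Of the members 54 were higher and 48 lower in LD* animals, 72 and 30 after TMM, and 46 and 56 without the 4 animals high in ribosomal protein messages, so no direction could be given.

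HD* and LD* animals were compared to ask about the amount drunk. POLR1B had 12.9, 18.9 and 23.0 TPM in LD* and 6.72, 15.2 and 18.7 TPM in HD* animals. The LD* animals reached higher, and HD* 8 was again the lowest animal, but 7 of the 8 HD* animals lay inside the LD* range. The difference was -0.33 (SE 0.17, limma adjusted p 0.94), and -0.19 without HD* 8. TAF7L differed by -0.39 (SE 0.20) and TAF10 by 0.18 (SE 0.098), also with an adjusted p of 0.94, and without HD* 8 by -0.36 and 0.10. Again limma called no member and none of all genes (0.00%), with 0 members and 147 genes (1.08%) at an unadjusted p under 0.05. Members were lower in HD* animals in 84 of 102 cases, in 56 after TMM and in 63 without the 4 animals, where their median difference went from -0.095 to -0.022.

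Daily intake over the 16 drinkers gave a finer measure of dose. POLR2F had a slope of 0.18 (SE 0.077) on the log2(TPM + 1) scale for each g/kg, TAF10 of 0.13 (SE 0.058) and TAF1B, of the polymerase I selectivity factor, of -0.23 (SE 0.10), each with a limma adjusted p of 0.51. POLR2F and intake had r = 0.52 and rho = 0.62. None of the members and none of all genes (0.00%) passed the threshold. At an unadjusted p under 0.05 there were 6 members and 907 genes (6.65%), so the members' 5.88% was near the share of all genes. With cohort as a covariate these counts were 35 members and 4014 genes (29.4%), again with none past the adjusted threshold. Slopes were negative for 81 of 102 members, for 54 after TMM and for 65 without the 4 animals, where their median went from -0.077 to -0.023. Across complexes the score of the subunits common to all polymerases had r = 0.43 and rho = 0.53 with intake, and r = 0.39 without the 2 animals farthest from the median intake. TAF variants and relatives had r = -0.60 and rho = -0.69, and r = -0.51 without those animals, and the subunits of polymerase I alone had r = -0.54 and rho = -0.67. Within cohort 7a, the only cohort with at least 6 drinkers, the coefficients were 0.47, -0.63 and -0.71 in the same order. The score of all genes had r = -0.37 over the 16 drinkers and r = -0.69 in cohort 7a. In cohort 7a the negative coefficients were thus near that of genes at large, while over the 16 drinkers they were more negative. Without the drinkers among the 4 animals high in ribosomal protein messages they were 0.38, -0.59 and -0.56 in the same order, and -0.23 for all genes. These coefficients are descriptions of 16 complexes over at most 16 animals.

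Cohort was tested beside group. TAF1D, of the polymerase I selectivity factor, averaged 16.8 ± 3.79 TPM in cohort 5 (n = 7), 12.1 ± 3.17 TPM in cohort 7a (n = 9), 14.4 ± 3.65 TPM in cohort 7b (n = 6) and 12.5 ± 0.73 TPM in cohort 4 (n = 2). GTF2H2 was highest in cohort 7b (8.76 ± 1.45 TPM) and lowest in cohort 4 (6.01 ± 0.51 TPM), and TAF9B was highest in cohort 5 (22.8 ± 2.59 TPM) and lowest in cohort 7a (18.8 ± 2.26 TPM). For TAF1D and TAF9B the cohorts overlapped, whereas for GTF2H2 the 2 animals of cohort 4 lay under all animals of cohort 7b and the other cohorts overlapped with both. The limma F statistics were 4.37, 4.34 and 3.74 with an adjusted p of 0.54, and no member and none of all genes (0.00%) passed. Unadjusted p-values under 0.05 were found for 8 members and 1140 genes (8.36%).

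The HD* difference was not detectably unlike in cohorts 5 and 7a. The interaction had its smallest p for TAF7L (0.87, SE 0.44), the second copy of TAF13 (0.69, SE 0.45) and POLR1E (0.33, SE 0.22), each with a limma adjusted p of 1.00. It called no member and none of all genes (0.00%), and 0 members and 294 genes (2.16%) at an unadjusted p under 0.05.

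Within the HD* group, very heavy and heavy drinkers could be set against each other, 4 animals against 4. POLR2A had 64.7, 78.8, 73.1 and 79.96 TPM in the HD animals (HD* 2, 3, 5 and 7) and 46.4, 48.7, 33.2 and 36.2 TPM in the VHD animals (HD* 1, 4, 6 and 8). Every VHD animal lay under every HD animal, which entails the same order within cohort 5 (HD* 1 to 4) and within cohort 7a (HD* 5 to 8). The difference was -0.85 on the log2(TPM + 1) scale (SE 0.16, limma adjusted p 0.0083).

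POLR3A had 24.2, 25.9, 26.4 and 27.1 TPM in HD and 15.5, 16.4, 9.22 and 8.35 TPM in VHD animals. The HD animals lay close together and all VHD animals were lower, those of cohort 7a by more than those of cohort 5 (-1.50 and -0.62). The difference was -1.06 (SE 0.22, adjusted p 0.012). GTF2F1 had 134, 134, 151 and 163 TPM in HD and 108, 106, 89.2 and 94.7 TPM in VHD animals, and again the categories did not overlap. It differed by -0.55 (SE 0.13, adjusted p 0.019).

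POLR2L, POLR2F and POLR2G were called in the opposite direction. POLR2L had 162, 145, 160 and 169 TPM in HD and 210, 186, 290 and 311 TPM in VHD animals. The VHD animals were all higher, with a difference of 0.61 (SE 0.17, adjusted p 0.032). POLR2F had 60.4, 59.7, 61.2 and 62.7 TPM against 82.4, 74.1, 101.2 and 98.1 TPM, again with no overlap, and differed by 0.53 (SE 0.14, adjusted p 0.027). POLR2G, of the polymerase II stalk, averaged 89.6 ± 12.3 TPM in HD and 135 ± 15.6 TPM in VHD animals (0.58, SE 0.14, adjusted p 0.022).

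In all, 13 of 102 members (12.7%) passed an adjusted p of 0.05, beside 1997 of all 13637 genes (14.6%), so the members were called about as often as genes at large. At 0.001, the threshold of the study for this contrast, neither a member nor any other gene passed in this limma fit of TPM. The study reported genes past that threshold in its own analysis of this contrast, which was not repeated here. POLR2F, POLR2G and POLR2L were higher in VHD animals, 3 members (2.94%) where 3.23% of all genes were called higher. The other 10 (9.80%) were lower, against 11.4% of all genes, and besides POLR2A, POLR3A and GTF2F1 they were GTF3C1 of TFIIIC, UBTF, MED26, POLR1A, GTF2I, POLR3B and MED9. Of these, GTF3C1, MED9, MED26, POLR1A, POLR2G and POLR3B were named after their values were seen. UBTF averaged 91.2 ± 6.26 TPM in HD and 63.7 ± 4.86 TPM in VHD animals (-0.51, SE 0.13, adjusted p 0.022). The largest subunits of all 3 polymerases were thus among the members called lower, with POLR1A at 20.7 ± 2.41 and 12.5 ± 2.85 TPM (-0.70, SE 0.20, adjusted p 0.034).

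Counted by overlap alone, VHD animals lay under all HD animals for 23 of 102 members, beside 17.9% of all genes, and above them for 6, beside 5.39% of all genes. Of the members, no TAF of TFIID and no subunit of TFIIH, of the Mediator head, tail or kinase module passed the test. The fit behind this test held no cohort term. TAF1 differed by -0.19 (SE 0.20, adjusted p 0.54), TAF7 by -0.37 (SE 0.19, adjusted p 0.21) and GTF3A by 0.28 (SE 0.15, adjusted p 0.21). In its own analysis the study reported both GTF3A and POLR2L as significantly higher in VHD animals.

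**Figure D3:**
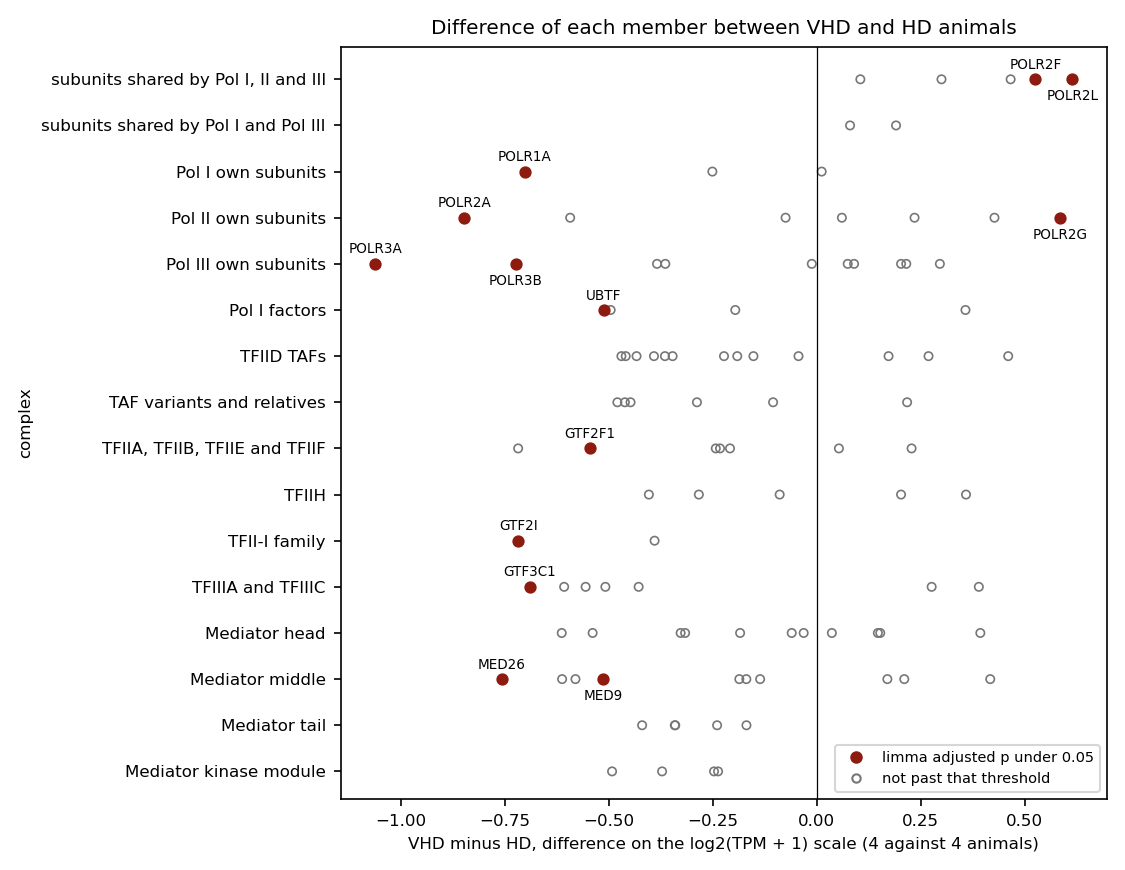
Difference between VHD and HD animals (4 against 4) on the log2(TPM + 1) scale for each member, by complex; filled points passed a limma adjusted p of 0.05. The 3 members called higher are POLR2F, POLR2G and POLR2L, and POLR1A, POLR2A and POLR3A are among the 10 called lower; with TMM each of the 13 keeps its sign and 9 stay past the threshold.

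The ribosomal protein score also separated VHD from HD animals. The score was between 0.066 and 0.80 in the VHD and between -0.39 and -0.19 in the HD animals, without overlap. The neuron markers (5 of 5 above 1 TPM on average, none at 0 in any animal, SNAP25 the most abundant with 1302 TPM) gave a score of -0.33 ± 0.36 in VHD and 0.15 ± 0.074 in HD animals. Their sum lay between 1440 TPM (HD* 8) and 2844 TPM (HD* 4) in VHD and between 2573 and 3240.1 TPM in HD animals. The striatal projection neuron markers summed to between 3494 and 6217 TPM in VHD and between 9182 and 10781 TPM in HD animals. The astrocyte markers (7 of 7 above 1 TPM on average, GFAP the most abundant with 2098 TPM) summed to between 4300 and 7092 TPM in VHD and between 2109 and 3681 TPM in HD animals, and the microglia markers (7 of 7, C1QB the most abundant with 134 TPM, none of either list at 0 in any animal) to between 363.8 and 635 TPM and between 276 and 363.5 TPM. The astrocyte and microglia sums did not overlap between the categories, but their scores, which weigh each gene alike, did. For the astrocyte markers the score was -0.27 in HD* 8 (VHD) and -0.013 in HD* 2 (HD). For the microglia markers it was -0.14 in HD* 8 and -0.053 in HD* 3 (HD). The projection neuron score did not overlap, with -0.72 to 0.042 in VHD and 0.55 to 0.77 in HD animals. The part of the projection neuron, astrocyte and microglia markers in the calls was not tested. With the ribosomal protein score as a covariate 0 members and 3 genes were called, and with the neuron score 1 member (GTF2H2) and 645 genes. As the ribosomal protein score separated the categories, the fit with it cannot tell category and score apart.

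The count of called members rested on single animals. Without HD* 2, 3, 5, 6 or 7 it was 5, 2, 2, 1 and 3, beside 8.02%, 4.99%, 4.45%, 3.49% and 5.3% of all genes. Without HD* 1 it was again 13, beside 15.2% of all genes, and without HD* 4 it was 36, beside 34.1%, so the count moved along with that of all genes. Without HD* 8 it was 15, with 8 higher and 7 lower, beside 1813 of all genes (13.3%), with 3.98% higher and 9.31% lower. POLR2A was called in each of these fits. With no filter on the level 7 of 103 members were called, beside 8.18% of 17208 genes. With TMM 19 members were called, 9 higher and 10 lower, and of 2581 called genes 1170 were higher where 441 of 1997 had been, the median difference of all genes moving from -0.17 to 0.0058.

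Across all 24 animals POLR2A and the ribosomal protein score had r = -0.94 and rho = -0.91, and POLR2L had r = 0.93 and rho = 0.90. Leaving out the 2 animals farthest from the median score gave r = -0.92 and r = 0.89, and leaving out the 4 high animals, which lay apart from the rest, gave r = -0.89 and r = 0.78 over 20 animals. Within cohorts 5, 7a and 7b the coefficient was -0.94, -0.98 and -0.93 for POLR2A and 0.89, 0.98 and 0.93 for POLR2L. The relation was thus present in each cohort of at least 6 animals.

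A ratio within an animal does not depend on the scaling between animals. The TPM of POLR2L was 1.57 times that of POLR2A in the lowest animal and 8.72 times in the highest. It was between 1.83 and 2.51 times in HD and between 3.82 and 8.72 times in VHD animals, without overlap, but between 1.57 and 7.71 times in controls and between 1.64 and 6.75 times in LD* animals, so that the main groups overlapped. By contrast POLR2F was between 0.294 and 0.475 times POLR2L, a 1.61-fold span where POLR2L over POLR2A had a 5.57-fold span, and POLR2B between 0.892 and 1.75 times POLR2A. POLR2F and POLR2L are among the 3 members with the highest coefficient with the ribosomal protein score, and POLR2A had the smallest p between VHD and HD animals, so the choice of genes bears on the width of these spans.

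**Figure D4:**
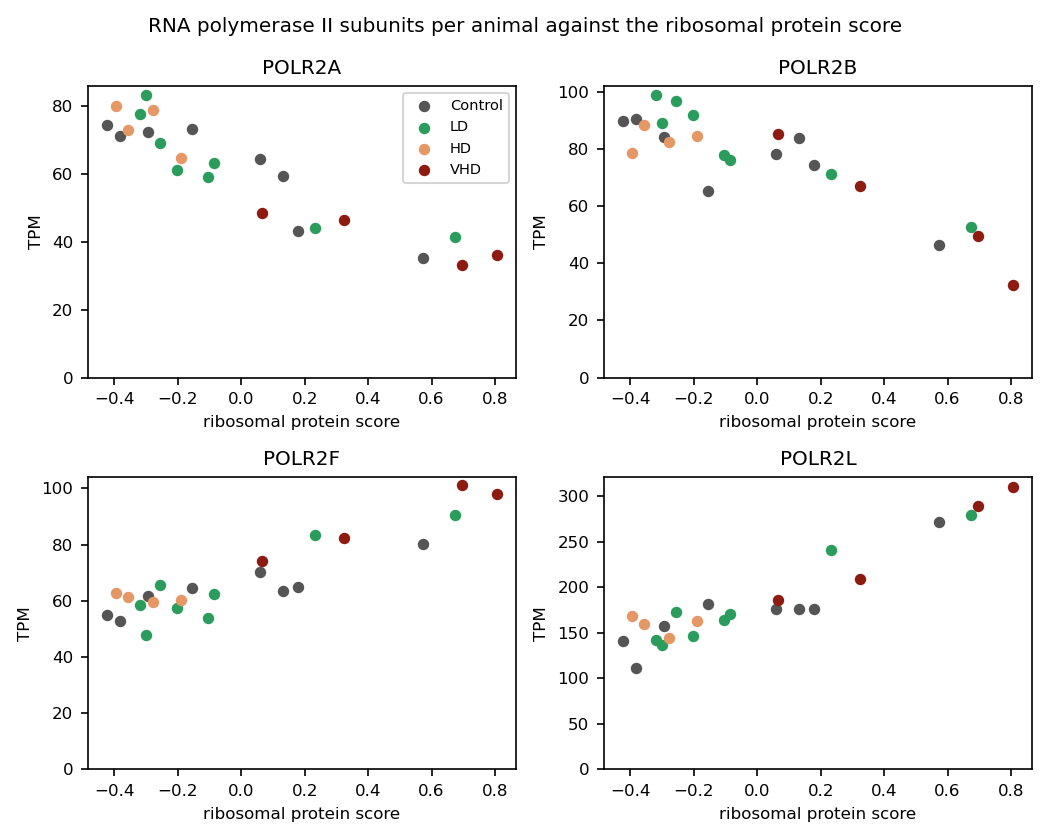
Level in TPM of POLR2A, POLR2B, POLR2F and POLR2L in each of 24 animals against the ribosomal protein score, coloured by drinking category. POLR2A and POLR2B are lower (r = -0.94 and -0.88) and POLR2F and POLR2L higher (r = 0.90 and 0.93) in animals with a high score, with the same signs after TMM.

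The slope on the score was fitted for all genes, a test added after the values were seen. It called 71 of 102 members (69.6%) and 7861 of all genes (57.6%). By direction 14 members (13.7%) had a positive slope, where 10.5% of all genes did, and 57 (55.9%) a negative one, where 47.2% did. Under TMM 75 members were called where 53.6% of all genes were, 39 positive and 36 negative where 26.5% and 27.1% of all genes were, and 17 members changed sign, so that the balance of signs depended on the scaling. The most negative coefficients were those of POLR3A (r = -0.96, slope -1.42, SE 0.091), GTF3C2 of TFIIIC (r = -0.96, slope -0.75, SE 0.058) and GTF2I (r = -0.96, slope -0.97, SE 0.067), and the most positive those of POLR2L (slope 0.93, SE 0.080), POLR2F (r = 0.90, slope 0.67, SE 0.074) and POLR2I (r = 0.85, slope 0.55, SE 0.075). All 6 kept their sign and their call under TMM.

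By complex, the 5 subunits common to all polymerases had positive coefficients, with a median r of 0.76, and the pair common to polymerases I and III had 0.35. Polymerase II was divided, with 4 of its 7 own subunits positive and 3 negative, and 5 and 2 after TMM. Of the tested members, all 5 of the Mediator tail, all 4 of the kinase module, both of the TFII-I family and all 3 particular to polymerase I were negative, with median r of -0.84, -0.69, -0.89 and -0.69, and of -0.53, -0.15, -0.67 and -0.24 without the 4 high animals, but after TMM 1 subunit of the tail and 1 of polymerase I had a positive slope. Subunits outside the symbol rule were not all negative, since ZNRD1 of polymerase I had a slope of 0.35 (SE 0.090, limma adjusted p 0.0017) and CCNC of the kinase module one of 0.093 (SE 0.14, adjusted p 0.58). Over all genes the median r was -0.40, and over the members -0.59. Coefficients above 0.8 were found for 3 members (2.94%) and 2.03% of all genes, and those under -0.8 for 31 members (30.4%) and 17.6% of all genes. Without the 4 high animals the medians were -0.16 for the members and -0.056 for all genes. Abundance ran alongside, since 10 of the 16 members with at least 100 TPM had a positive coefficient but 12 of the 50 with 1 to 30 TPM, compared with 40.4% and 29.2% of all genes at those levels. Between 30 and 100 TPM it was 11 of 36 members and 24.7% of all genes, so over all genes the share did not increase steadily with abundance.

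Partners of these complexes whose symbols lie outside the rule were examined from a list. Of 42, 38 were measured, each with a mean of at least 1 TPM, among them TBP, the TATA-binding protein itself (22.4 ± 2.90 TPM). The 4 subunits of the pausing factor NELF were not analysed here. No partner passed an adjusted p of 0.05 in the comparisons of groups, intake, cohort or their interaction. Between VHD and HD animals 4 of 38 passed, all lower in VHD animals, where 14.6% of all genes were called and 11.4% called lower. SUPT5H, a subunit of the elongation factor DSIF, averaged 139 ± 4.79 TPM in HD and 94.2 ± 6.72 TPM in VHD animals (-0.56, SE 0.12, limma adjusted p 0.013). SNAPC2, of the complex that starts small nuclear RNA genes, the elongation factor SUPT6H, and CDK19, a kinase of the Mediator kinase module, differed by -0.63, -0.69 and -0.61.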

How the data were processed

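RNA-Seq was made of the nucleus accumbens core of 24 animals. The authors aligned reads to the MacaM assembly with STAR 2.5.2b, keeping uniquely mapped reads, counted them on genes with HTSeq 0.6.1p1 and tested counts with DESeq2. The values deposited are TPM, although they carry the name of normalized counts, and how lengths entered them is not given in the sources used here. Reads are called single-end in one source and paired-end in another. The libraries were made with strand orientation. Whether counting used strand is not given in the sources used here, so overlapping antisense genes may share reads. TPM keeps no sequencing depth, so the depth of each animal is unknown, no counting error is given, and count models were not used.

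Values were taken as log2(TPM + 1), a scale that understates the fold change of low genes. All 13637 genes whose mean reached 1 TPM entered the tests of limma 3.58.1 under R 4.3.3 (empirical Bayes with a trend, both directions), adjusted by Benjamini-Hochberg over all of them, with a threshold of 0.05. A single model of 3 groups gave the group contrasts. VHD against HD was fitted to 8 animals, intake to 16 drinkers, cohort beside group to 24, and the interaction to 13 animals, those of cohorts 5 and 7a that were controls or HD*. The contrasts with controls share those controls. Scores carry no p. Ribosomal protein genes were taken by symbol. Members and lists were chosen with earlier results of these data known. Genes are named when among the 3 smallest p of a test, the highest or lowest of a complex, among 5 named in the study's text (TAF1, TAF7, UBTF, POLR2L and GTF3A), among the 3 steadiest or 3 most variable, or among the 3 highest or lowest coefficients with the ribosomal protein score. GTF3C1, MED9, MED26, POLR1A, POLR2B, POLR2G, POLR3B, TAF4B and TAF9 were named after their values were seen. So were the partners ZNRD1, CCNC, TWISTNB, CD3EAP and CDK8. A gene that this rule selects is not reported here.

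Fits were tested on simulated data, and the outcome is not reported here. Alternatives were pseudocounts of 0.1 and 8, a filter of 10 TPM or none, TMM (trimming 30% of M and 5% of A), marker or ribosomal protein scores, or cohort, as covariates, array weights, subsets of cohorts or groups, other forms of the scores and each animal left out. The slope on the ribosomal protein score, the neuron score as a covariate and the fits without 4 animals were added after seeing the data. Of 16 complexes, listed symbols not found under their names were TAF1A, POLR1F, POLR1G, POLR1H and several paralogs; 3 of these are among the partners as TWISTNB, CD3EAP and ZNRD1. Scores were computed with pandas 2.3.3, scipy 1.17.1 and numpy 2.4.6 (Python 3.11.15), and plotted with matplotlib 3.10.9.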

Additional observations from a re-analysis of the deposited data

Results flagged for a closer look

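In groups of 4 to 10 animals, a value was marked when its gap to the nearest other animal, relative to the range of the group, exceeded Dixon's 95% limit. Among 236 groups of values of scores and of the genes selected by the rule for naming or called between VHD and HD, 20 were marked, 8.47% where chance marks about 1 in 20, and groups of correlated genes are not independent. Control 8 had 8 of the marks and HD* 8 had 4, both among the animals with the highest ribosomal protein scores, and what set them apart was not tested.

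Control 8 was far from the other controls for POLR2L (272 TPM, the others 112 to 181) and TAF7 (69.3 TPM, the others 101 to 125). Its scores were -0.31 for the Mediator head, -0.33 for the tail, -0.58 for the subunits of polymerase I, -0.30 for those of polymerase III and -0.22 for all members. HD* 8 was far below its group for POLR1B (6.72 TPM, the others 13.4 to 18.7), and its scores were -0.60 for the Mediator middle, -0.52 for the subunits of polymerase III and -0.59 for TFIIA, TFIIB, TFIIE and TFIIF. LD* 5 was high for POLR1D (94.0 TPM) and POLR2G (162 TPM).

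Other animals were marked for single genes, namely HD* 4 for POLR2J (224 TPM), LD* 8 for MED12L (6.19 TPM), LD* 4 for TAF1 (18.4 TPM) and LD* 2 for TAF1B (21.6 TPM, the others 10.2 to 13.9). GTF2IRD2B, close to 0 throughout, was marked at 0.032 TPM in Control 8, 0.036 TPM in LD* 6 and 0.036 TPM in HD* 4.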

How the results depend on the processing

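In the contrasts of groups, the intake slope and the cohort test, the counts of 0 called genes and 0 called members were the same under all alternatives run. In the interaction they were 0 except without Control 7 and Control 2, when 14 genes and 1 gene, none a member, were called (0 to 14 leaving out each animal).

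The comparison of VHD with HD animals depended on the processing. Against 1997 genes and 13 members, the ribosomal protein score as a covariate left 3 and 0, the neuron score 645 and 1, leaving out the 4 animals with high ribosomal protein scores, which removes 2 VHD animals, 606 and 2 (POLR2A and POLR3A), and array weights gave 7613 and 73. With no filter 7 of 103 members and 1408 of 17208 genes were called. With cohort as a covariate 19 members were called, 3 higher and 16 lower, among them all 13 of the main fit. The count over all genes for that setting is not given here. Leaving out each animal gave 476 to 4651 genes and 1 to 36 members, and the cause was not tested. With the ribosomal protein score as a covariate the sign reversed for GTF2I (0.27), MED9 (0.039), POLR2L (-0.12) and POLR3B (0.12). The score of all members differed by -0.16, by 0.034 under TMM and by 0.017 without the 4 animals.

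The slope on the ribosomal protein score called 7861 genes and 71 members, 4044 and 39 without the 4 animals, and 4660 and 47 with the neuron score.

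Limits are these. Each animal was measured once, the depth of each animal is unknown, and array weights estimated from 8 animals are unstable. All VHD animals had higher ribosomal protein scores than all HD animals, so that in these 8 animals category and score cannot be told apart. The same limit holds for the striatal projection neuron score, which was lower in all VHD than in all HD animals. Cohort and group were not balanced. A p that misses the threshold does not show that values did not differ.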
